A study of Mus musculus with 8 samples.

Results

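The genes described here are 10 that encode mechanosensitive ion channels, proteins of the primary cilium, and channels of the cell membrane and of cell junctions: *Piezo1*, *Piezo2*, *Trpv4*, *Pkd1*, *Pkd2*, *Ift88*, *Gja1*, *Panx1*, *Panx3* and *Aqp1*. They were taken by gene symbol from a table of 54658 symbols, and each symbol matched 1 entry. All 10 passed the filter on low counts (CPM, read counts scaled to a common library total, above 1 in at least 4 of the 8 samples), which left 14404 genes for testing. The samples were primary articular chondrocytes, the cells of joint cartilage, taken from the femoral heads of wild-type mice aged 3 weeks. Starting on the day after seeding, 4 samples were given IL-1β, a proinflammatory cytokine of arthritic joints, at 1 ng/mL and 4 were given vehicle, and RNA was extracted for sequencing after 24 h. No allele or other agent was part of either group, and the cells were studied in culture, apart from their matrix and from load. The labels number the samples of each group but do not state whether they came from separate cultures or animals, so that the p-values measure only the spread between these samples, which may be technical. Total counts were 10992355 to 17104351 with IL-1β and 13970959 to 17456063 with vehicle, and the floor for a showable level was set at 3 counts, or 0.172 to 0.273 CPM. Intervals and floors given for counts cover counting error only, since the reads carried no molecular identifiers.

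Chondrocytes live in a tissue whose main task is to bear load, and they sense it through several kinds of membrane protein. Piezo channels open when the membrane is stretched and let calcium in, *Trpv4* encodes a calcium channel that responds to osmotic change and moderate strain, and polycystins are large membrane proteins found in the primary cilium, the single antenna-like organelle that most chondrocytes carry and that *Ift88* is needed to build. Connexins join neighboring cells through gap junctions, pannexins release ATP, which acts on purinergic receptors of the same and nearby cells, and aquaporins carry water across the membrane. Each of these proteins has a role in how cartilage cells answer to load or to swelling, and the comparison of IL-1β with vehicle asks how their transcripts stood in inflamed chondrocytes.

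The cells expressed the defining genes of chondrocytes, and the level of these genes moved with the treatment. All 11 chondrocyte markers (*Col2a1*, *Acan*, *Sox9*, *Comp*, *Matn1*, *Matn3*, *Col9a1*, *Col11a1*, *Hapln1*, *Cnmd* and *Snorc*) were tested and all 11 fell with IL-1β, with a median log2 fold change of -1.74, and their summed level was 4208 to 4621 CPM with IL-1β against 16196 to 16823 CPM with vehicle. Summed over each list, the endothelial, leukocyte, fibroblast, neuronal and glial markers lay well below the chondrocyte markers. Markers of hypertrophic chondrocytes and osteoblasts are given with *Panx3*. The 6 endothelial markers summed to 0.649 to 1.25 CPM in the IL-1β samples and 0.751 to 1.07 CPM in the vehicle samples, and none of them passed the filter. The 6 macrophage and leukocyte markers summed to 14.3 to 17.7 CPM in the IL-1β samples and 9.86 to 10.8 CPM in the vehicle samples, nearly all of it from *Cd68*, a lysosomal protein gene that was the only one of them tested and rose by 0.67 on the log2 scale. Of 5 fibroblast markers, 2 were tested and both rose, with a sum of 56.9 to 60.8 CPM against 37.7 to 40.4 CPM. Of 5 neuronal and glial markers, 2 were tested and neither passed, and *Snap25* was at 0 in all samples. The part of these shifts in the results that follow was not tested, and in bulk samples fewer cells of a type and less RNA per cell cannot be told apart.

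With IL-1β, 9 of the 10 genes changed, in both directions. *Gja1*, *Pkd2*, *Panx1* and *Aqp1* rose, *Piezo1*, *Piezo2*, *Trpv4*, *Pkd1* and *Panx3* fell, and *Ift88* was not called in either direction, by edgeR's quasi-likelihood test with a Benjamini-Hochberg adjusted p under 0.05 over all 14404 genes. Thus 4 of 10 were higher where 20.4% of all genes tested were higher, and 5 of 10 were lower where 19.8% of all genes tested were lower. The changes past 2-fold were those of *Panx3* and *Piezo2*, both lower. These 2 were the only differentially expressed genes (DEGs; log2 fold change above 1 or below -1 at the same adjusted p) among the 10, while 2.35% of all genes tested were lower DEGs and 2.86% were higher DEGs, of which the 10 genes held 0. The median absolute log2 fold change was 0.49 over the 10 genes and 0.16 over all genes tested, and the signed medians were -0.06 and -0.0012. The 10 genes were chosen with earlier results of these data known, so nothing particular to the group is read from these shares and medians.

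**Figure D1:**
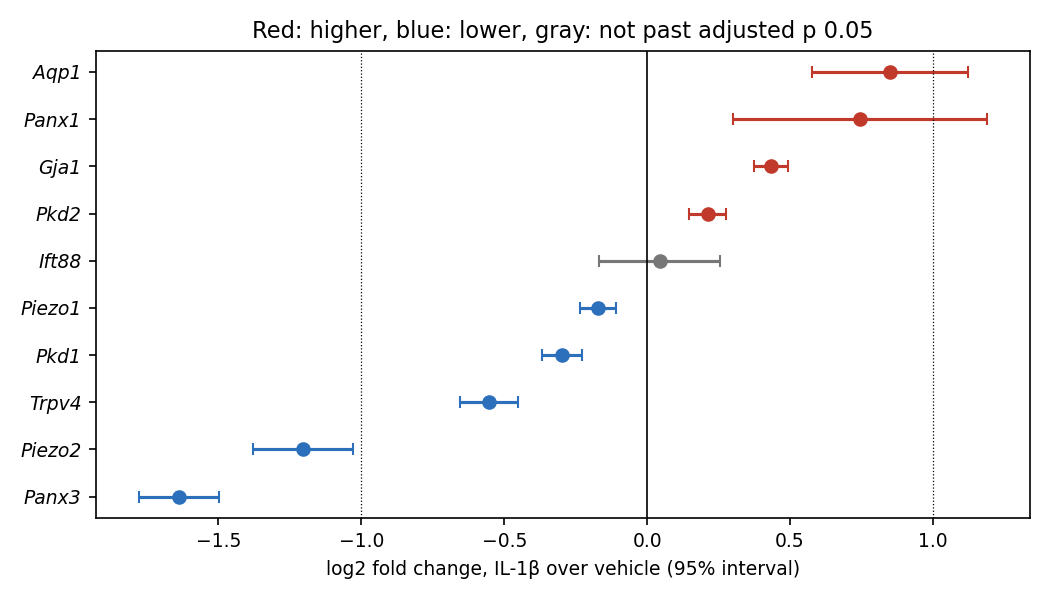
Log2 fold change of each of the 10 genes, IL-1β over vehicle (x axis), with 95% intervals from edgeR's quasi-likelihood fit on 4 against 4 samples. The dotted lines at -1 and 1 mark a 2-fold change. Red points rose, blue points fell, and *Ift88*, in gray, has an interval that spans 0. The points run from -1.64 for *Panx3* to 0.85 for *Aqp1*.

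The 4 IL-1β samples lay wholly above the 4 vehicle samples for *Gja1*, *Pkd2*, *Panx1* and *Aqp1*, and wholly below them for *Piezo1*, *Piezo2*, *Trpv4*, *Pkd1* and *Panx3*. Across all genes tested, 18.7% were separated in the first way and 18.2% in the second. For *Ift88* the groups overlapped.

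**Figure D2:**
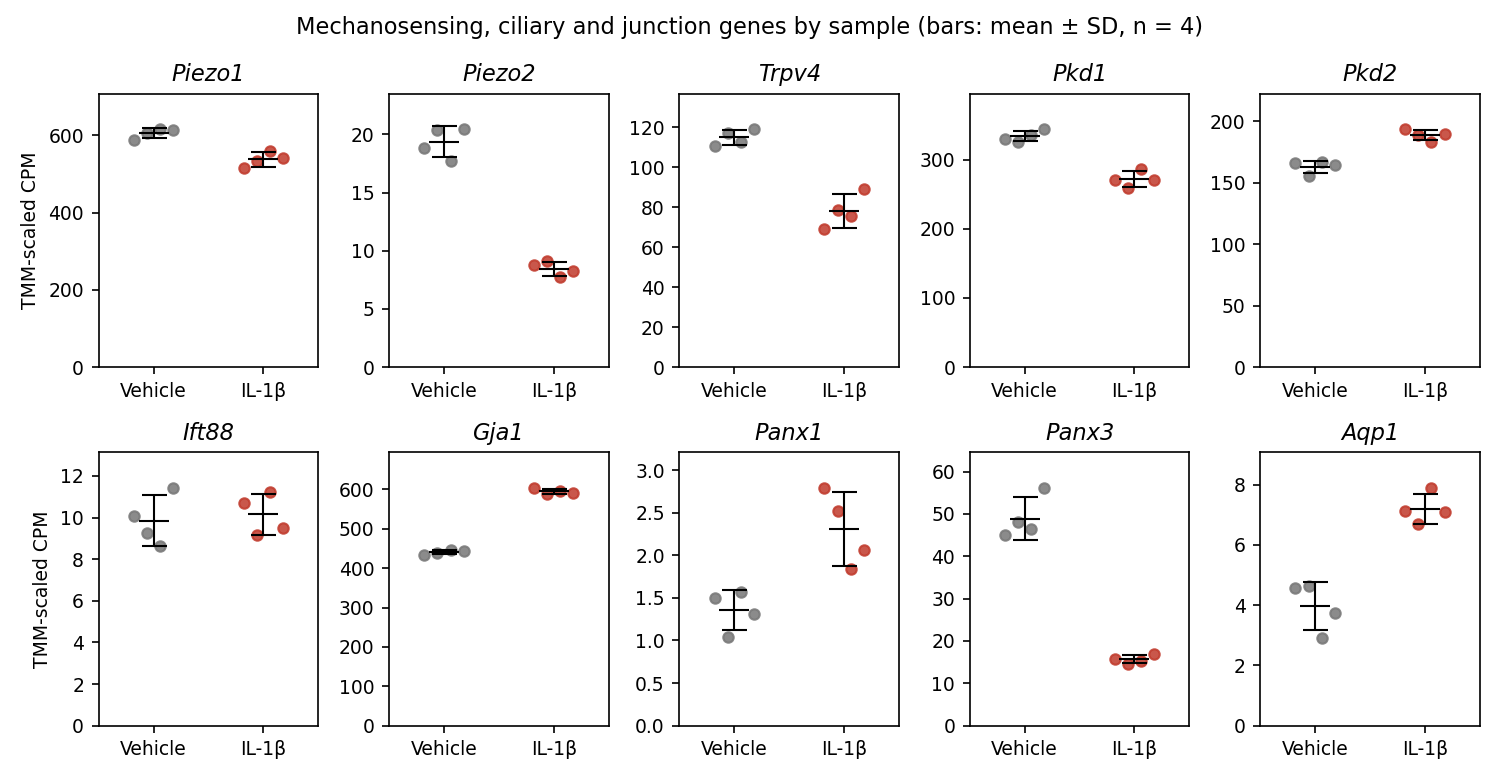
TMM-scaled CPM (y axis, from 0, its own scale in each panel) of the 10 genes in the 4 vehicle (gray) and 4 IL-1β (red) samples, with bars for the mean ± SD. The groups are apart in every panel but that of *Ift88*, whose values lie between 8.63 and 11.4 CPM.

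Set side by side per gene length, as TPM (a level scaled by length and library, computed from the deposited gene lengths), the 10 transcripts spanned a wide range. With vehicle, *Piezo1* stood first at 171 ± 3.93 TPM (SD, n = 4), above 95.8% of the genes tested, followed by *Gja1* at 120 ± 2.64 TPM, *Trpv4* at 78.8 ± 1.51 TPM and *Pkd1* at 53.7 ± 0.858 TPM. *Pkd2* at 44.9 ± 1.84 TPM and *Panx3* at 39.8 ± 2.92 TPM came next, with ranges that overlapped. The lower group was *Ift88* at 5.95 ± 0.611 TPM, *Aqp1* at 4.23 ± 0.895 TPM and *Piezo2* at 3.71 ± 0.214 TPM, the last pair with overlapping ranges. *Panx1* closed the order at 0.630 ± 0.116 TPM, above only 2.31% of the genes tested.

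With IL-1β, *Gja1* stood first at 157 ± 5.82 TPM and *Piezo1* second at 147 ± 2.05 TPM. The ranges of these 2 did not overlap in either group, 152.8 to 165.5 TPM against 144 to 149 TPM with IL-1β and 116 to 123 TPM against 166 to 175 TPM with vehicle. The length of *Piezo1* includes 24.6% of exonic bases shared with *Ctu2* on the opposite strand. How reads there were counted is not known, so that the order of *Gja1* and *Piezo1* may depend on it. *Trpv4* at 51.8 ± 4.63 TPM and *Pkd2* at 50.4 ± 2.47 TPM had overlapping ranges. *Pkd1* followed at 42.3 ± 1.5 TPM and *Panx3* at 12.4 ± 0.718 TPM. *Aqp1* stood at 7.42 ± 0.432 TPM, above *Ift88* at 5.94 ± 0.594 TPM, and the ranges of this pair did not overlap in either group while their order turned. That turn rested on the gene lengths. In CPM, the mean of *Ift88* was above that of *Aqp1* in both groups, 10.2 against 7.20 with IL-1β and 9.85 against 3.96 with vehicle. *Piezo2* at 1.57 ± 0.150 TPM and *Panx1* at 1.04 ± 0.226 TPM were lowest. The order of different genes is a description and was not tested.

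**Figure D3:**
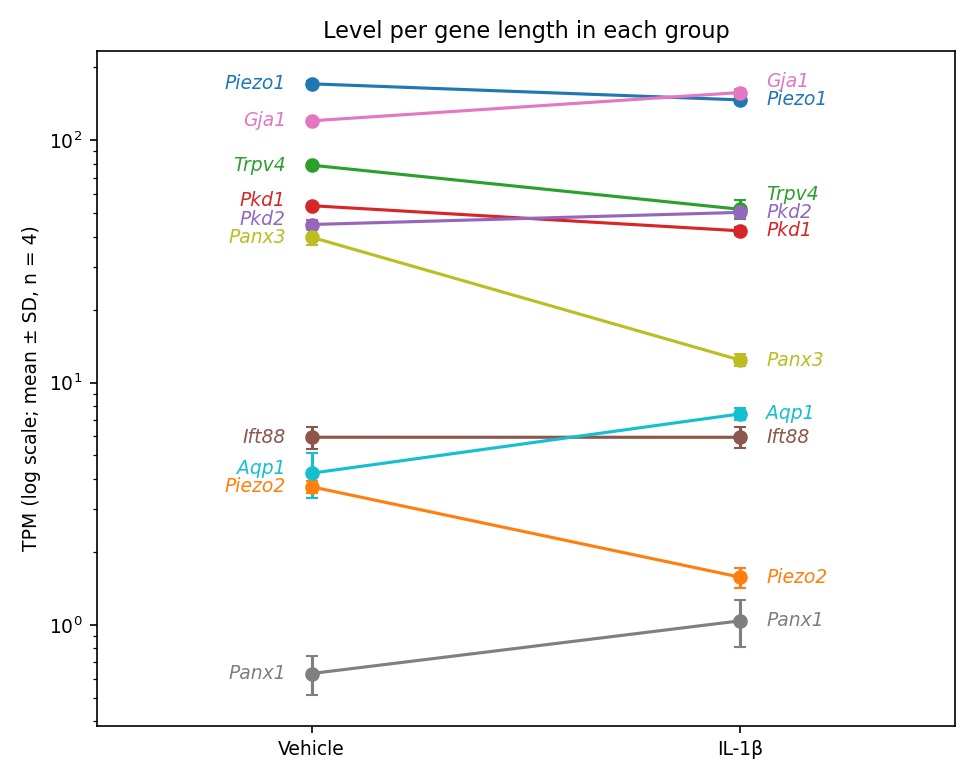
Level per gene length (TPM, log scale; mean ± SD, n = 4) of the 10 genes with vehicle and with IL-1β, with a line joining each gene's 2 means. The lines of *Piezo1* and *Gja1*, of *Pkd1* and *Pkd2*, and of *Aqp1* and *Ift88* cross, and the steepest line is that of *Panx3*, from 39.8 to 12.4 TPM.

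The promoters of 3 of these genes are shown because they belong to the most abundant transcripts of the 10 and bear the one motif match found. The sequences are the 250 bases before the RefSeq start of transcription (GRCm38.p6), 5′ to 3′ on the strand of the gene, for *Gja1* (chr10:56377050-56377299, plus strand), *Piezo1* (chr8:122551330-122551579, minus strand) and *Trpv4* (chr5:114658422-114658671, minus strand). Capitals in the first mark a match to the AP-1 motif TGANTCA, and the others hold no match and no capitals.
Gja1: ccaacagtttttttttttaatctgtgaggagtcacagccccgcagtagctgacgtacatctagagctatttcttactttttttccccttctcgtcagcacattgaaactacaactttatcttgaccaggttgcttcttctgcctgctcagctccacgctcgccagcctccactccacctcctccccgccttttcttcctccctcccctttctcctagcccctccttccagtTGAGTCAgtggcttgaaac
Piezo1: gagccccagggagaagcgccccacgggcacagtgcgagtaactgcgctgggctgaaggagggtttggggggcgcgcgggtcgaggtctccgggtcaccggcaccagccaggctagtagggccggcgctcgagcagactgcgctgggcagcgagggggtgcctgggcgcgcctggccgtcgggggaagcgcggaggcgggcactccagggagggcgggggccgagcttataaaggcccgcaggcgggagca
Trpv4: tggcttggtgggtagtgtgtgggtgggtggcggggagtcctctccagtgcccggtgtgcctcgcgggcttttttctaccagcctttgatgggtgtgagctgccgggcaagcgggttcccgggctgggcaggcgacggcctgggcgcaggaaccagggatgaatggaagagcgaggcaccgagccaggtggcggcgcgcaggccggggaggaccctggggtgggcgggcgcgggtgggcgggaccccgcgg

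The RefSeq promoter table matched 8 of the 10 genes, in windows of 250 bases before and 50 after the start, and had no entry for *Panx3* and *Piezo2*. The motifs searched, on both strands, were the AP-1 motif TGANTCA (bound by Jun and Fos proteins), the kB motif (bound by NF-κB) and the X-box motif (bound by RFX factors of ciliary genes). The AP-1 motif was found in 1 of the 8 windows, that of *Gja1*, as TGAGTCA from 19 to 13 bases before the start, and in 7.81% of 32851 windows in the table. The kB motif was in 0 of the 8 and 8.46% of all windows, and the X-box motif in 0 of the 8 and 1.53% of all windows. The windows of *Piezo1* and *Trpv4* were rich in G and C, at 75% and 73%, with 34 and 30 CG dinucleotides, against medians of 52.7% and 7 over all windows. That of *Gja1* had 47.7% and 8 CG dinucleotides. The windows of *Panx1*, *Ift88*, *Pkd1*, *Pkd2* and *Aqp1* lay between, at 55.3% to 66.7%. These matches and contents describe letters in the windows and were not tested.

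*Piezo1*, which encodes the stretch-activated channel that many cell types share, was the most abundant of the 10 transcripts with vehicle and fell slightly. It lies at chr8:122481698-122551329 (GRCm38, minus strand, ENSMUSG00000014444.17). Its level was 516, 534, 561 and 541 CPM in IL-1β replicates 1 to 4 and 589, 606, 616 and 614 CPM in vehicle replicates 1 to 4, from 5722 to 10489 reads. Every IL-1β sample was lower than every vehicle sample, with a narrow gap between 561 and 589 CPM. The means were 538 ± 18.7 and 606 ± 12.2 CPM (SD, n = 4), 88.7% of the vehicle level, a log2 fold change of -0.17 (SE 0.0313, 95% interval -0.24 to -0.11, edgeR adjusted p = 4.8e-05). Of the exonic bases of *Piezo1*, 24.6% are shared with exons of *Ctu2*, a tRNA modification gene on the opposite strand. Whether the reads were counted by strand is not given in the sources used here, so that reads in the shared bases cannot be told apart. *Ctu2* itself stood at 24.1 ± 1.32 CPM in the IL-1β samples and 25.8 ± 0.682 CPM in the vehicle samples and was not called (adjusted p = 0.222).

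*Piezo2*, best known as the touch and proprioception channel of sensory neurons, was far rarer and fell to 43.4% of its vehicle level. The gene is at chr18:63010213-63387183 (GRCm38, minus strand, ENSMUSG00000041482.17). Its level was 8.74, 9.09, 7.72 and 8.23 CPM with IL-1β (97 to 130 reads) and 18.9, 20.4, 17.7 and 20.4 CPM with vehicle (248 to 353 reads). The groups were far apart, with no IL-1β sample near the lowest vehicle sample. The means were 8.44 ± 0.597 and 19.3 ± 1.33 CPM, 2.30-fold lower with IL-1β, a log2 fold change of -1.20 (SE 0.0855, 95% interval -1.38 to -1.03, adjusted p = 1.52e-12). Tested against a 2-fold change itself with edgeR's glmTreat, the fall of *Piezo2* had an adjusted p of 0.0953 and that of *Panx3* passed. Its deposited length is 14566 bases where the GENCODE vM21 exons cover 17162, and with the longer length its level was 1.33 ± 0.127 TPM with IL-1β and 3.15 ± 0.181 TPM with vehicle.

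The Piezo channels therefore fell by unequal amounts. Within each sample, the ratio of *Piezo1* to *Piezo2* per length was 86.1, 85.9, 106 and 96.0 with IL-1β and 45.7, 43.5, 51.0 and 44.0 with vehicle. The log2 ratio averaged 6.54 ± 0.15 and 5.52 ± 0.10, a difference of 1.02 (SE 0.0898) that separated the groups (two-sided exact permutation test, p = 0.0286, the smallest that 4 against 4 samples allow, and 0.0286 after Benjamini-Hochberg adjustment over 3 pairs). Transcripts of *Piezo1* outnumbered those of *Piezo2* in every sample of both groups.

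*Trpv4*, the osmotically and mechanically gated calcium channel whose mutations cause skeletal dysplasias, also fell, to 68.2% of its vehicle level. It lies at chr5:114622152-114658421 (GRCm38, minus strand, ENSMUSG00000014158.12). Its level was 69.1, 78.5, 75.6 and 89.2 CPM in the IL-1β samples and 111, 117, 113 and 119 CPM in the vehicle samples. The IL-1β samples spread more widely than the vehicle samples, and the highest of them, replicate 4, was still under the lowest vehicle sample. The means were 78.1 ± 8.38 and 115 ± 3.86 CPM, a log2 fold change of -0.55 (SE 0.0488, 95% interval -0.65 to -0.45, adjusted p = 1.67e-10).

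Other channels that sense stretch, temperature or cell volume moved in both directions. Of a list of 29, 14 were tested, 5 rose, 5 fell and 4 were not called, against 20.4% higher and 19.8% lower of all genes tested. The median log2 fold change was 0.09, and *Trpv5*, *Trpc6* and *Trpa1* had no reads in any sample. The 5 that fell were 2 without IL-1β replicate 3, and 3 without IL-1β replicate 4, vehicle replicate 1 or vehicle replicate 4, under DESeq2 and with no filter on low counts. *Kcnk2*, which encodes the stretch-activated potassium channel TREK-1, fell from 12.2 ± 1.72 to 5.40 ± 1.07 CPM (log2 fold change -1.17, adjusted p = 8.99e-09). *Lrrc8d*, a subunit of the volume-regulated anion channel, rose from 35.1 ± 2.92 to 71.1 ± 2.81 CPM (1.02, adjusted p = 2.99e-16). *Tmem63a*, an osmosensitive cation channel gene, rose from 38.5 ± 1.49 to 60.4 ± 0.652 CPM (0.65, adjusted p = 1.72e-13), and *Trpm4*, a calcium-activated cation channel gene, from 6.52 ± 0.658 to 8.88 ± 0.597 CPM (0.44, adjusted p = 0.0015).

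The polycystins moved in opposite directions. *Pkd1* encodes polycystin-1, a large receptor-like protein, and *Pkd2* encodes polycystin-2, a calcium-permeable channel that pairs with it, and loss of either causes polycystic kidney disease. *Pkd1* (chr17:24549834-24596508, GRCm38, plus strand, ENSMUSG00000032855.6) stood at 271, 259, 286 and 271 CPM in the IL-1β samples and 330.1, 326, 336 and 344 CPM in the vehicle samples. The groups did not overlap, IL-1β being the lower one. The means were 272 ± 11.3 and 334 ± 7.75 CPM, 81.4% of the vehicle level, a log2 fold change of -0.30 (SE 0.0337, 95% interval -0.37 to -0.23, adjusted p = 2.41e-08). Its exons share 3.98% of their bases with those of *Tsc2* on the opposite strand, a tumor suppressor gene that stood at 90.6 ± 5.43 and 92.0 ± 3.76 CPM and was not called (adjusted p = 0.788).

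*Pkd2* (chr5:104459450-104505819, plus strand, ENSMUSG00000034462.9) stood at 194, 189, 183 and 189.8 CPM in the IL-1β samples and 166, 156, 167 and 164 CPM in the vehicle samples. Here every IL-1β sample was the higher one. The means were 189 ± 4.21 and 163 ± 4.91 CPM, a log2 fold change of 0.21 (SE 0.0311, 95% interval 0.15 to 0.28, adjusted p = 2.08e-06). Within a sample, the ratio of *Pkd1* to *Pkd2* per length was 0.817, 0.800, 0.911 and 0.834 with IL-1β and 1.16, 1.22, 1.18 and 1.22 with vehicle. Per length, *Pkd1* was thus the more abundant of the pair in all 4 vehicle samples and *Pkd2* in all 4 IL-1β samples. The log2 ratio differed by -0.51 (SE 0.0454, two-sided exact permutation test, p = 0.0286, and 0.0286 after adjustment over 3 pairs). That p followed from the opposite shifts of *Pkd1* and *Pkd2*, each without overlap of the groups, and adds no support to them. The turn in order rested on the gene lengths. In CPM, *Pkd1* stood above *Pkd2* in both groups, 272 against 189 with IL-1β and 334 against 163 with vehicle.

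Relatives of the polycystins were scarce. Of 8 listed, 3 were tested, 0 rose and 1 fell, against 20.4% and 19.8% of all genes tested. *Pkhd1l1*, a relative of the fibrocystin gene, went from 1.17 ± 0.261 to 0.610 ± 0.317 CPM on 5 to 21 reads a sample (log2 fold change -0.96, adjusted p = 0.020). It passed in 10 of 16 alternative analyses, not without IL-1β replicate 3 or 4 or vehicle replicate 3. Nor did it pass under DESeq2 or where CPM in all 8 samples, or the mean CPM, had to exceed 1.

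*Ift88*, which encodes a core subunit of the IFT-B complex that carries cargo up the cilium, was the one gene of the 10 without a detectable change. It lies at chr14:57424062-57517936 (plus strand, ENSMUSG00000040040.16). Its level was 10.7, 9.16, 11.2 and 9.50 CPM in the IL-1β samples and 10.1, 9.24, 8.63 and 11.4 CPM in the vehicle samples, and the samples of the groups intermingled. The means were 10.2 ± 0.981 and 9.85 ± 1.22 CPM (log2 fold change 0.04, SE 0.103, adjusted p = 0.78), and the two-sided exact permutation test on CPM gave p = 0.714. The 95% interval of -0.17 to 0.26 also covers a change of the size seen for *Pkd2*.

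Other genes of ciliary transport either rose slightly or were not called. Across 4 lists of ciliary genes, 45 of 47 were tested, 13 (28.9%, against 20.4% of all genes tested) rose, 0 fell (19.8% of all genes tested) and 32 were not called, with log2 fold changes from -0.19 to 0.58 and a median of 0.08. No change among them reached 2-fold. Leaving out IL-1β replicate 1 or vehicle replicate 3 made 1 gene pass as lower, in the BBSome and in IFT-B respectively.

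Of 16 tested genes of IFT-B, the complex *Ift88* belongs to, 5 rose and 0 fell. *Ttc26* went from 3.18 ± 0.691 to 4.84 ± 1.13 CPM (log2 fold change 0.58, adjusted p = 0.0077), *Ift74* from 7.92 ± 0.571 to 10.7 ± 0.689 CPM (0.43, adjusted p = 0.000734), *Ift80* from 26.3 ± 0.518 to 34.8 ± 2.21 CPM (0.40, adjusted p = 6.84e-07) and *Ift57* from 12.3 ± 0.674 to 16.0 ± 1.1 CPM (0.39, adjusted p = 0.000243). Of the 6 genes of IFT-A, the complex that returns cargo to the cell body, 3 rose and 0 fell: *Wdr19* (0.30, adjusted p = 0.00907), *Ift140* (0.25, adjusted p = 0.00918) and *Ift122* (0.17, adjusted p = 0.014).

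The BBSome, a coat that moves membrane proteins in and out of the cilium, had 3 of 9 genes higher and 0 lower: *Bbs1* (log2 fold change 0.41, adjusted p = 0.00284), *Bbs4* (0.31, adjusted p = 0.0192) and *Bbs2* (0.26, adjusted p = 0.0241). Among 14 tested motor and membrane genes of the cilium, 2 rose and 0 fell, *Wdr60*, a dynein-2 subunit (0.33, adjusted p = 0.00331), and *Adcy3*, a ciliary adenylyl cyclase (0.15, adjusted p = 0.0125). The 3 BBSome genes became 1 without IL-1β replicate 1 or vehicle replicate 3, and the 2 motor and membrane genes became 1 without IL-1β replicate 3 or vehicle replicate 1. *Bbs2* passed in 12 of 16 alternative analyses, *Bbs4*, *Ift122* and *Adcy3* in 14, and the other 8 named ciliary genes in all 16. Cells carry a cilium mainly when they are not dividing, and of 6 markers of cycling cells *Mki67* fell (log2 fold change -0.32, adjusted p = 6.4e-06) and 5 were not called, with sums of 60.8 to 66.8 CPM in the IL-1β samples and 71.6 to 77.8 CPM in the vehicle samples. Their part in the ciliary values was not tested.

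**Figure D4:**
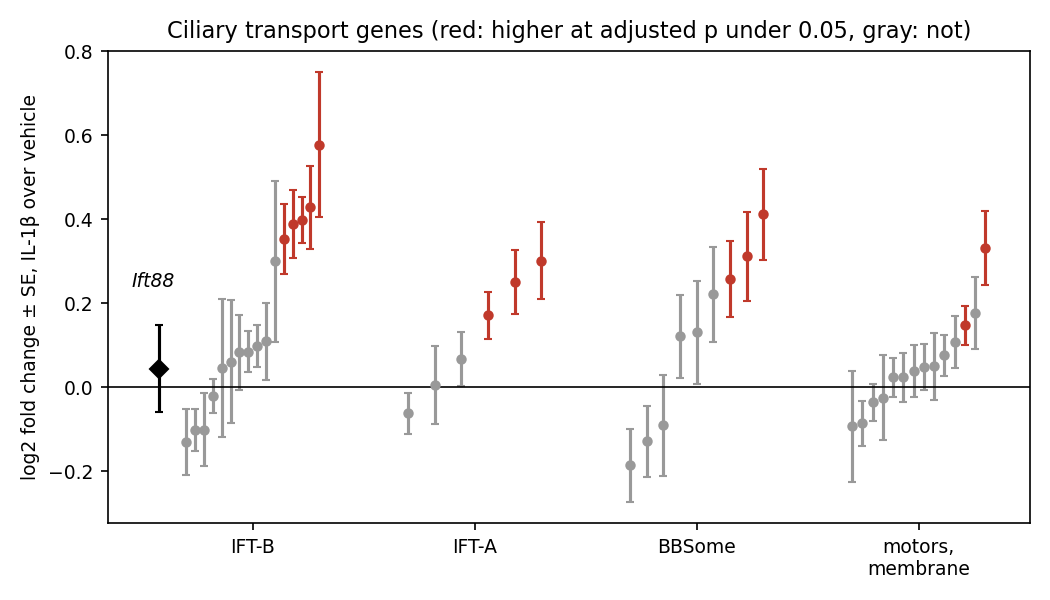
Log2 fold change ± SE (y axis, IL-1β over vehicle) of *Ift88* (black) and of the 45 other ciliary genes tested, in 4 lists and ordered by size within each. The 13 genes in red rose, from 0.15 for *Adcy3* to 0.58 for *Ttc26*, and the 32 in gray were not called.

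*Gja1*, which encodes connexin 43, the main gap junction protein of cartilage and bone cells, rose. Its SD relative to its mean was the smallest of the 10 in CPM, 1.13% with IL-1β and 1.24% with vehicle, though not in TPM. It lies at chr10:56377330-56402513 (plus strand, ENSMUSG00000050953.10). Its level was 604, 589, 596 and 592 CPM in the IL-1β samples and 434, 438, 445 and 445 CPM in the vehicle samples. The samples of each group lay close together and far from those of the other group. The means were 595 ± 6.73 and 441 ± 5.44 CPM, 1.35-fold higher with IL-1β, a log2 fold change of 0.43 (SE 0.0291, 95% interval 0.37 to 0.49, adjusted p = 4.16e-13).

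No other connexin approached that level. Of 19 others, 3 passed the filter, of which 1 rose and 1 fell, against 20.4% and 19.8% of all genes tested. The third, *Gjc1* (connexin 45), was not called, at 7.42 ± 0.937 and 6.52 ± 0.607 CPM. *Gjc3*, a connexin gene known from myelinating glia, had 0, 2, 2 and 2 reads with IL-1β and 34, 35, 37 and 31 reads with vehicle. Its level with vehicle was 20.1 times that with IL-1β, with a 95% exact interval from the summed reads of 8.98 to 55.6 that covers counting error only (edgeR adjusted p = 2.94e-10). *Gjb2*, connexin 26, had 15, 20, 27 and 22 reads with IL-1β and 3, 8, 4 and 7 reads with vehicle, a log2 fold change of 2.10 (adjusted p = 2.81e-06). The reads of both were few, and the groups did not overlap for either. *Gjc3* entered the test only through its vehicle samples and *Gjb2* only through its IL-1β samples, the group in which each was higher. With 1 group above the filter and the other below it, the groups could not overlap, so that the lack of overlap adds no support. Both also passed with no filter on low counts, and both were left out where CPM had to exceed 1 in all 8 samples, *Gjb2* also where the mean CPM had to.

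Proteins that bind connexin 43 or hold the junction in place moved in both directions. Of 8 listed, 7 were tested, 2 rose, 3 fell and 2 were not called, where 20.4% of all genes tested rose and 19.8% fell. *Cdh2*, N-cadherin, rose from 4.39 ± 0.767 to 8.86 ± 0.692 CPM (log2 fold change 1.03, adjusted p = 6.75e-08), and *Dbn1*, the actin-binding drebrin, from 10.3 ± 0.361 to 16.2 ± 2.00 CPM (0.65, adjusted p = 6.78e-07). *Cav1*, the caveolar coat protein, fell from 65.7 ± 0.479 to 43.6 ± 2.43 CPM (-0.58, adjusted p = 2.48e-12), and *Ctnnb1*, β-catenin, from 439 ± 4.59 to 369 ± 9.03 CPM (-0.25, adjusted p = 8.91e-08).

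The pannexins, channels through which cells release ATP, parted ways. *Panx3*, the pannexin of cartilage and bone, had the largest change of the 10 genes. It lies at chr9:37659902-37669235 (minus strand, ENSMUSG00000011118.4). Its level was 15.7, 14.6, 15.4 and 17.0 CPM in the IL-1β samples and 44.9, 48.1, 46.4 and 56.2 CPM in the vehicle samples. The vehicle samples were all higher, and replicate 4 was the highest of each group. The means were 15.7 ± 0.994 and 48.9 ± 5.03 CPM, 32.1% of the vehicle level or 3.11-fold lower, a log2 fold change of -1.64 (SE 0.0685, 95% interval -1.78 to -1.5, adjusted p = 7.29e-18).

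*Panx3* is known from prehypertrophic and hypertrophic chondrocytes and from osteoblasts, and markers of both moved in the same samples. Of 5 hypertrophic markers, 4 were tested: *Col10a1*, the collagen of hypertrophic cartilage, fell from 101.4 ± 4.16 to 12.6 ± 0.983 CPM (log2 fold change -2.996), *Pth1r* (-1.85) and *Alpl* (-0.65) fell, and *Spp1*, osteopontin, rose (0.80), while *Ihh* had 0 to 20 reads. Their summed level, most of it *Spp1*, was 2409 to 2550.2 CPM in the IL-1β samples and 1546 to 1657 CPM in the vehicle samples. Of 6 osteoblast and osteocyte markers, 4 were tested and all 4 fell, among them *Ibsp* (-3.69) and *Sp7* (-1.42), with sums of 30.1 to 37.2 CPM against 95.2 to 108 CPM. Their part in the fall of *Panx3* was not tested.

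*Panx1*, the widely expressed pannexin, rose from a level close to the filter. It lies at chr9:15002128-15045478 (minus strand, ENSMUSG00000031934.14). It had 31, 35, 31 and 29 reads with IL-1β and 26, 18, 22 and 20 reads with vehicle, which correspond to 2.79, 2.52, 1.84 and 2.06 CPM and to 1.5, 1.04, 1.57 and 1.31 CPM. The lowest IL-1β sample was above the highest vehicle sample by a small step. The means were 2.30 ± 0.433 and 1.36 ± 0.236 CPM, 1.68-fold higher, with a wide interval (log2 fold change 0.75, SE 0.217, 95% interval 0.30 to 1.19, adjusted p = 0.00628). Within a sample, *Panx3* exceeded *Panx1* per length by 9.73, 10.1, 14.5 and 14.3 times with IL-1β and by 51.7, 79.0, 50.8 and 73.3 times with vehicle. The log2 ratio averaged 3.58 ± 0.31 and 5.96 ± 0.33, a difference of -2.39 (SE 0.228, two-sided exact permutation test, p = 0.0286, and 0.0286 after adjustment over 3 pairs). Here too that p followed from opposite shifts, of *Panx3* and *Panx1*, each without overlap of the groups, and adds no support to them.

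**Figure D5:**
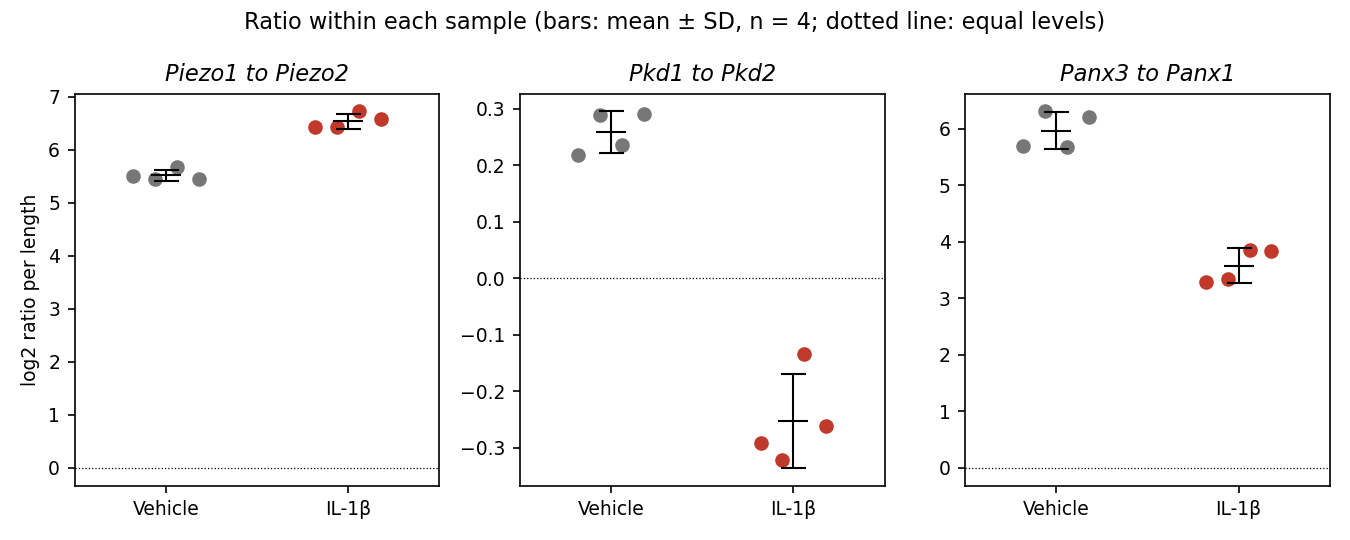
Log2 ratio per length (y axis, its own scale in each panel) of *Piezo1* to *Piezo2*, *Pkd1* to *Pkd2* and *Panx3* to *Panx1* within each of the 4 vehicle (gray) and 4 IL-1β (red) samples, with bars for the mean ± SD and a dotted line at equal levels. The groups are apart in all 3 panels, and only the ratio of *Pkd1* to *Pkd2* crosses the dotted line, from 0.26 to -0.25.

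The remaining pannexin and 3 receptors of released ATP rose. Of *Panx2* and 14 purinergic receptors, 7 were tested, 4 rose and 0 fell, with a median log2 fold change of 0.49. Over all genes tested, 20.4% rose and 19.8% fell. In this list 1 gene passed as lower without IL-1β replicate 1, without vehicle replicate 1, with 1 RUVs factor of unwanted variation and with no filter on low counts. It need not be the same gene each time, since with no filter the genes below it were tested too. *Panx2* rose from 3.58 ± 0.366 to 6.57 ± 0.403 CPM (0.88, adjusted p = 1.41e-06). *P2rx4*, an ATP-gated cation channel gene, rose from 27.6 ± 1.70 to 48.9 ± 1.87 CPM (0.83, adjusted p = 6.06e-14), *P2ry2*, the G protein-coupled receptor for ATP and UTP, from 8.20 ± 1.08 to 12.3 ± 1.13 CPM (0.58, adjusted p = 3.53e-05), and *P2rx7*, the ATP-gated channel that acts on the inflammasome, from 8.53 ± 0.654 to 11.9 ± 0.690 CPM (0.49, adjusted p = 8.9e-05).

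Of 11 ectonucleotidases, which break ATP down to adenosine, and adenosine receptors, 4 were tested, 1 rose and 0 fell, against 20.4% and 19.8% of all genes tested. Without IL-1β replicate 1, and with no filter on low counts, 1 gene passed as lower. It need not be the same gene in both, since with no filter the genes below it were tested too. *Adora1*, the adenosine A1 receptor, had 63, 109, 88 and 107 reads with IL-1β and 10, 5, 6 and 3 reads with vehicle. It thus stood at 6.59 ± 1.33 CPM against 0.373 ± 0.166 CPM (log2 fold change 4.10, SE 0.247, adjusted p = 3.25e-14). *Adora1* entered the test only through its IL-1β samples, the group in which it was higher, and its vehicle samples lay below the filter. It also passed with no filter on low counts and was left out where CPM had to exceed 1 in all 8 samples. *Nt5e*, CD73, the enzyme that makes adenosine, stood at 337 ± 6.83 and 326 ± 4.50 CPM and was not called (adjusted p = 0.222). It is named for its level, after its values were seen.

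*Aqp1*, a water channel gene of chondrocytes as well as of red cells and vessel walls, rose from a low level. It lies at chr6:55336432-55348555 (plus strand, ENSMUSG00000004655.5). It had 79, 93, 133 and 100 reads with IL-1β and 79, 80, 41 and 57 reads with vehicle, or 7.12, 6.71, 7.90 and 7.09 CPM and 4.56, 4.62, 2.92 and 3.75 CPM. The IL-1β samples lay close together and above all vehicle samples, which varied more. The means were 7.20 ± 0.50 and 3.96 ± 0.799 CPM, 1.80-fold higher, a log2 fold change of 0.85 (SE 0.133, 95% interval 0.58 to 1.12, adjusted p = 5.82e-06). The endothelial markers, given above, were near 0 in both groups. The 6 erythroid markers summed to 1.44 to 1.88 CPM in the IL-1β samples and 0.986 to 1.73 CPM in the vehicle samples, with *Hbb-bt* at 0 in all samples and *Alas2*, the only one tested, not called.

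The other aquaporins were scarce, with at most 43 reads in any sample. Of 11, 3 were tested, 1 rose and 1 fell, against 20.4% and 19.8% of all genes tested. *Aqp5*, an aquaporin of secretory epithelia, had 3, 8, 13 and 3 reads with IL-1β and 23, 28, 30 and 28 reads with vehicle (log2 fold change -1.81, adjusted p = 2.68e-05). It entered the test only through its vehicle samples, passed also with no filter on low counts, and was left out where CPM had to exceed 1 in all 8 samples. *Aqp9*, which also carries glycerol, stood at 1.43 ± 0.456 and 0.832 ± 0.257 CPM (0.71, adjusted p = 0.0466), and it passed in only 7 of 16 alternative analyses. It did not pass without IL-1β replicate 1 or 4 or vehicle replicate 2, 3 or 4. Nor did it pass under DESeq2, with total library size, with no filter on low counts or where CPM had to exceed 1 in all 8 samples. *Aqp1* was therefore the most abundant aquaporin in CPM in both groups.

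Over all 11 lists of related genes, 86 of 148 were tested, 27 (31.4%) rose and 11 (12.8%) fell, against 20.4% and 19.8% of all genes tested, with a median log2 fold change of 0.08. The lists were chosen with results known, and nothing particular to them is read from these shares.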

How the data were processed

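RNA-Seq of primary murine articular chondrocytes compared 4 IL-1β samples with 4 vehicle samples. Reads were trimmed with cutadapt, aligned to mm10 with STAR (2.4.2a in the submitters' processing notes) and assigned to GENCODE genes with featureCounts. The methods of the study name another STAR version, and an earlier GENCODE release than the vM21 used here. The authors deposited unscaled read counts, whole numbers listed by gene symbol. Whether the batch correction that the methods name had been applied, and whether they were assigned by strand, is not given in the sources used here. Gene lengths (in bases, unit other), also deposited, were used for TPM and for ratios per length.

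Counts were scaled by TMM (factors 0.984 to 1.01) and compared, two-sided, with edgeR's quasi-likelihood test, treatment being the only term and Benjamini-Hochberg adjustment over 14404 genes (CPM over 1 in 4 or more samples) (edgeR 4.0.16, limma 3.58.1, R 4.3.3). Python 3.11.15 served for the other values (scipy 1.17.1, pandas 2.3.3, numpy 2.4.6) and the figures (matplotlib 3.10.9). Ratios within a sample used (count + 0.5) / length and an exact permutation test over samples. The code was tested on simulated data. Positions and overlaps are from GENCODE vM21 (GRCm38), in which 9 of the 10 genes had exon lengths equal to those deposited, and promoters from RefSeq (GRCm38.p6).

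The 10 genes and all lists were chosen with earlier results of these data known. Of each related list, the genes named are up to 4 with the largest absolute log2 fold change among those past the threshold, except where said. As alternatives, DESeq2 1.42.0 replaced edgeR, and other scalings and filters, the replicate number as a block, 1 RUVs factor, glmTreat against a log2 fold change of 1, other pseudocounts for the ratios, and leaving out each sample were tried. The *Piezo2* length of vM21 was added as an alternative after seeing the data. Total counts of 10992355 to 17456063 per sample set the precision, and the sequencing of miRNA, the animals and the human tissue of the study were not analysed here.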

Additional observations from a re-analysis of the deposited data

How the results depend on the processing

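Of the 10 genes, 4 rose, 5 fell and 2 were DEGs in all 16 alternatives other than glmTreat, the replicate block (4, 5 and 2) and each left-out sample included. Under glmTreat, which tests for a change beyond 2-fold, 0 rose, 1 fell and 1 was a DEG (*Panx3*), since most changes were smaller than that. The log2 fold change of *Ift88*, 0.04, ranged from -0.0159 to 0.12 with 1 sample left out, was below 0 without replicate 3 of either group (-0.0159 and -0.0113), and was called in none of these alternatives. The highest adjusted p of *Panx1* was 0.0314, and that of the other 8 genes 0.000516. With 1 sample left out, the difference in log2 ratio was 0.96 to 1.07 for *Piezo1* to *Piezo2*, -0.55 to -0.49 for *Pkd1* to *Pkd2* and -2.49 to -2.27 for *Panx3* to *Panx1*, each with an exact permutation p = 0.0571, the smallest that 3 against 4 samples allow. Deviations from the group means did not follow the replicate numbers (mean correlation over genes -0.023 for 4 same-numbered pairs, 0.0075 for 12 others). These values cannot decide whether same-numbered samples came from 1 culture or animal, since a shared source with a small effect could leave no correlation. Among all genes, DEGs numbered 412 higher and 339 lower, 635 and 571 without a filter, 266 and 245 with CPM above 1 in all 8 samples, and 262 and 175 under glmTreat. Of 352 counts over the related lists in the 16 alternatives other than glmTreat, 312 stayed within 1.5 times and 40 moved, and under glmTreat a further 12 moved. At this depth the few reads of *Panx1*, *Gjc3*, *Gjb2* and *Aqp5* limit their precision.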
